A study of Canis lupus familiaris with 33 samples.

Results

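Dense methylated windows are 100-kb stretches of the dog autosomes in which at least 30% of the bases lay under an MBD-seq peak of some tissue. They were selected by these measured values: all autosomal peaks of 11 tissues were merged into union regions, each of the 38 autosomes was divided into windows of 100 kb from its first base, and the bases in union regions were counted in every window. This gave 2479 dense windows among 22054, or 11.2% (95% Wilson interval 10.8% to 11.7%, counting error only). They made up 247.9 Mb and held 44.6% of all union bases, 122.7 of 275.1 Mb.

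In mammals most CpG dinucleotides outside CpG islands carry a methyl group, and CpGs are unevenly spread along chromosomes. GC-rich, gene-rich stretches hold many of them, and AT-rich stretches few. In MBD-seq, sheared DNA is captured on beads that carry a protein domain with affinity for methylated CpGs, so a fragment is recovered more readily the more methylated CpGs it carries. The fractions sequenced here were those eluted at the highest salt, which hold the most strongly bound fragments. A window with few peaks can therefore be methylated but poor in CpGs, and cover as used here is the length of strongly captured sequence, not a methylation level.

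The samples were tissues of healthy adult beagles put down with alfaxalone and KCl: 2 of brain (cerebrum and cerebellum), 4 of the digestive system (stomach, colon, liver and pancreas), and kidney, lung, spleen, ovary and mammary gland. Each tissue had 2 MBD libraries and 1 input library of uncaptured DNA, 33 libraries in all, and the labels tied both MBD libraries of a tissue to the same peak list. One female gave an MBD library to every tissue. The second MBD library came from an animal titled jj8, labelled male, in 7 tissues, from a female titled jj82 in stomach and colon, and from a further female in ovary and mammary gland. The input came from the female common to all tissues in ovary, pancreas, kidney and mammary gland, and from jj8 in the other 7 tissues. The labels describe 3 dogs but carry 4 animal names, and the sex given for jj8 is female where its input libraries are concerned. With 1 list a tissue there is no replicate spread within a tissue, and the read depth behind the lists is unknown. The lists held between 260977 peaks (colon) and 370761 peaks (ovary), and their shortest peaks were 175 to 218 bases long.

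The threshold cut through a continuous range of cover. Over all windows the median cover was 6.13%, with quartiles of 3.33% and 14.5%, and 27 windows had no peak in any tissue. Among dense windows the median cover was 45.5%, with quartiles of 36.0% and 59.8%. The windows just inside the threshold were chr3:74000001-74100000 at 30%, chr18:26300001-26400000 at 30.001% and chr8:63300001-63400000 at 30.007%. Just outside lay chr6:18400001-18500000, chr5:60300001-60400000 and chr20:53500001-53600000, with 29.99%, 29.98% and 29.97%. Cover of 30% to 40% was found in 890 dense windows, cover of 50% or more in 1007 and cover of 75% or more in 225. Coordinates are those of the CanFam3.1 assembly, and genes in the windows were not analysed here.

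Every tissue covered the dense windows many times more than the rest of the autosomes. The mean cover of a dense window by the list of a single tissue ran from 32.5% in pancreas over 36.0% in mammary gland, the median tissue, to 40.6% in ovary. Cerebrum followed ovary at 40.5% and kidney at 40.3%, and stomach stood next to pancreas at 32.7%. The spread between windows was large, with an SD of 15.7 points in ovary and 17.2 points in lung, the lowest and the highest of the 11 tissues. In the other 19575 windows mean cover was 3.02% in pancreas, 3.83% in lung, the median, and 5.60% in ovary. The ratio of both values was 7.24 in ovary, 7.62 in cerebellum and 8.58 in kidney, and it reached 10.4 in colon and 10.7 in pancreas. These ratios follow from how the windows were chosen and are given as a description.

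**Figure D1:**
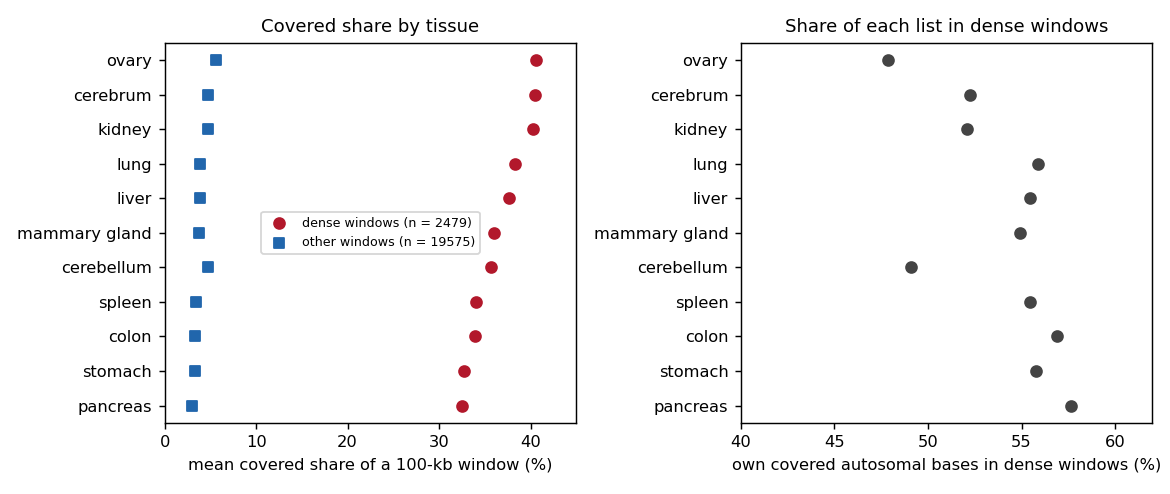
Left, mean covered share (percent of 100 kb) of dense windows (circles) and of all other autosomal windows (squares) by the peak list of each tissue; right, percent of each tissue's own covered autosomal bases that lies in dense windows. Ovary has the highest cover in both kinds of window and the lowest share of its bases in dense ones, 47.8%, while pancreas has the highest share, 57.7%.

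Longer lists tended to have a smaller part of their covered bases in dense windows. Dense windows held 57.7% of the covered bases of pancreas, 56.9% of those of colon, 55.9% in lung, 55.8% in stomach, 55.5% in spleen and 55.4% in liver. The share was 54.9% in mammary gland, 52.2% in cerebrum, 52.1% in kidney, 49.1% in cerebellum and 47.8% in ovary. Across the 11 tissues the number of peaks and this share had a Pearson's r of -0.94 and a Spearman's rho of -0.89, and r was -0.78 without ovary and cerebellum, the longest lists. The correlation is a description, since both values come from the same lists.

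The share was also set beside the sexes in the labels and the animal of the input. All libraries labelled male came from jj8 and each kind of input from a single animal, so n counts tissues, and sex and animal cannot be told apart. The windows were chosen by the cover of these same lists, so the values are a description with no test. Where both MBD libraries were labelled female the share was 53.8% ± 4.09 (SD, n = 4), and where one was labelled male 53.98% ± 2.93 (SD, n = 7), a difference of -0.13 points. With an input from the female common to all tissues it was 53.1% ± 4.19 (SD, n = 4) and with that of jj8 54.4% ± 2.74 (SD, n = 7), a difference of -1.27 points. The ranges overlapped in both comparisons, and both differences were smaller than the SD between tissues. When ovary was left out and the windows were chosen again from the other lists, both differences turned positive, to 1.89 and 0.48 points. Left out in the same way, liver, lung, pancreas or spleen also gave a positive difference by sex label (0.109 to 0.481 points).

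Dense cover in the union did not always mean dense cover in a single tissue. The list of ovary alone passed 30% in 1707 of the 2479 windows, that of cerebrum in 1635, that of cerebellum in 1388, the median, and that of pancreas in 1069, or 43.1%. In 953 windows every one of the 11 lists passed 30% on its own. Such windows were 38.4% of the dense ones and 4.32% of all autosomal windows. In 630 dense windows no list did so, and their union cover reached at most 40.2%. The remaining 896 windows lay between, with 123 passing in 1 tissue and 114 in 10. Of the 1007 windows with a union cover of 50% or more, 869 passed in every tissue.

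Peaks in dense windows were more numerous, wider and merged into longer regions. A dense window held 36.6 (mammary gland) to 42.1 (liver) peaks of a tissue, against 7.93 (colon) to 12.8 (ovary) in other windows. The median peak was 453 bases wide in pancreas and 598 bases in cerebrum within dense windows, and 258 and 323 bases elsewhere. Peaks were wider in dense windows in 11 of 11 tissues. Since the windows were chosen by the bases under peaks, more and wider peaks in them follow from that choice and are given as a description. Merged over tissues, dense windows held 110884 of 450785 autosomal union regions, 44.7 per window against 17.4 elsewhere. The median region was 580.5 bases wide in dense windows and 328 bases in the others. Of 3209 regions of 5 kb or more, 95.7% had their midpoint in a dense window. The widest was chr25:49356457-49415493, a stretch of 59037 bases with a peak in every tissue. It was followed by chr24:46986974-47031144 and chr16:54332420-54372617, with 44171 and 40198 bases, and each of these also held peaks of all 11 tissues.

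Methylated sequence in dense windows was more widely shared among tissues. Regions with a peak in all 11 tissues held 77.3% of the union bases of dense windows and 37.5% of those elsewhere, a difference of 39.7 points that is given as a description, since the same lists chose the windows. Counted by base, 47.6% of the union bases in dense windows were covered by every list, against 20.4% elsewhere. Bases covered in 1 tissue only were 8.53% of the union bases in dense windows and 21.2% elsewhere. Width moved with sharing: among regions of 500 to 1000 bases, 50.1% in dense windows and 45.3% elsewhere had a peak in all tissues. Among those of 300 to 500 bases the shares were 16.7% and 20.2%, and among those of 2000 to 5000 bases 98.3% and 97.4%. Regions of 2000 bases or more made up 27.7% (up to 5000 bases) and 20.5% (longer) of the bases in dense windows, against 6.09% and 0.59% elsewhere. The part of width in the difference of sharing was not tested further.

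Overlap between pairs of tissues was higher in dense windows in 55 of 55 pairs. The Jaccard index, the bases covered in both tissues over those covered in either, had a median of 0.798 in dense windows (0.687 to 0.872) and of 0.609 elsewhere (0.449 to 0.726). The index rises with cover alone, and the windows were chosen for high cover in these lists, so its direction is a description and no test. The mean index of cerebellum with the other tissues was 0.702 in dense windows and 0.491 elsewhere, the lowest of the 11 in both, and that of ovary was next with 0.746 and 0.525. Mammary gland had the highest mean in both, 0.807 and 0.621. Over the 2479 windows the covers of 2 tissues had a Pearson's r between 0.839 (cerebellum and liver) and 0.996 (pancreas and stomach). These r values describe windows of shared sequence and are not over independent replicates.

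Peaks in dense windows also had a higher fold enrichment. Fold is the authors' signal value of a peak divided here by the median of its list, so that 1 is a typical peak of that tissue. Within dense windows the median relative fold ran from 1.20 in cerebellum over 1.28 in spleen to 1.34 in colon. Elsewhere it ran from 0.892 in colon to 0.9503 in cerebellum, below all values in dense windows. The log2 ratio of both was 0.48 ± 0.07 (SD, n = 11 tissues), with 0.34 in cerebellum as the lowest and 0.59 in colon as the highest. The median −log10 p-value of peaks, as deposited, was 28.9 (cerebellum) to 49.6 (pancreas) in dense windows and 17.3 (lung) to 27.1 (stomach) elsewhere. Of the 1% of autosomal peaks with the highest fold, 60.2% (ovary) to 80.3% (lung) lay in dense windows, which held 28.9% (ovary) to 38.6% (pancreas) of all autosomal peaks of a tissue. Fold and cover come from the same peaks and were not tested against each other.

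Within the dense class relative fold rose with cover, and the tissues fanned out. In windows with a cover of 30% to 40% the median relative fold lay between 1.07 (cerebellum) and 1.13 in the 11 tissues. It was 1.23 to 1.37 at a cover of 50% to 60%, and 1.501 (cerebellum) to 2.04 (lung) at 70% to 80%. In the 129 windows with 80% or more it was 1.72 in ovary and 1.78 in cerebellum, 2.36 in stomach, the median tissue, 3.03 in mammary gland and 3.12 in lung. The share of union bases covered by every list rose along the same classes, from 34.1% at 30% to 40% to 73.2% at 80% or more. In 1326 dense windows (53.5%) the median relative fold was above 1 in all 11 tissues, and in 5 it was below 1 in all of them. Over all 22054 autosomal windows these shares were 7.94% and 9.98%. Of the 19575 other windows, 18365 had peaks of every tissue and could count in either share.

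**Figure D2:**
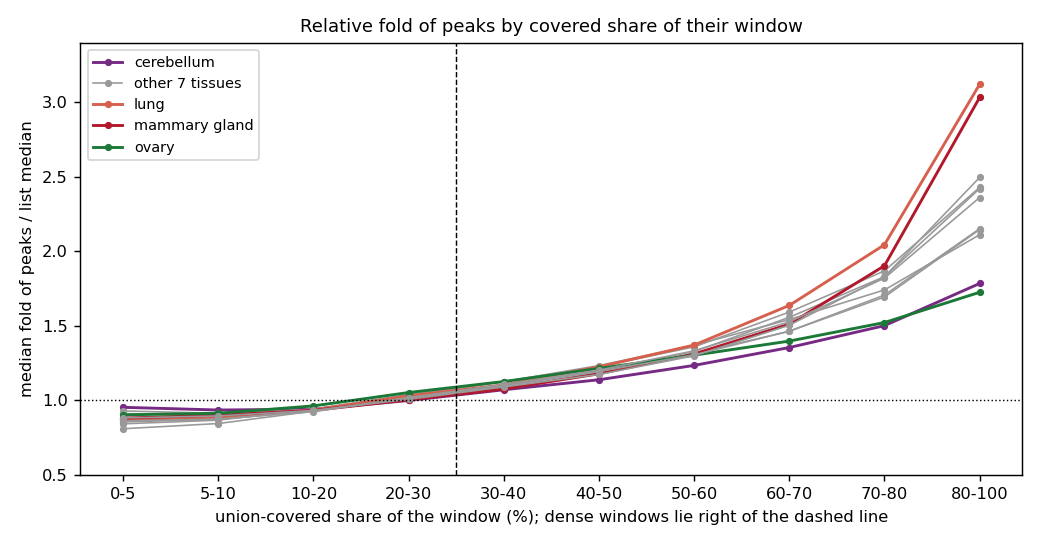
Median relative fold of peaks (fold divided by the median of the list) in windows grouped by the union-covered share (percent), 1 line per tissue; the dashed line marks the 30% threshold. All tissues lie between 0.809 and 1.05 left of the threshold and separate above a cover of 60%; at 70% or more lung and mammary gland are the highest and ovary and cerebellum the lowest.

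The window with the highest cover was chr18:1900001-2000000, of which 95.7% lay in union regions. Pancreas covered 83.8% of it and cerebrum 93.1%, the lowest and the highest of the tissues. Next came chr28:40400001-40500000 (94.5%), chr12:72100001-72200000 (94.1%), chr25:49300001-49400000 (93.6%) and chr2:84700001-84800000 (92.9%). The others of the top 10 were chr9:900001-1000000, chr28:39400001-39500000, chr28:40500001-40600000, chr24:46000001-46100000 and chr31:37400001-37500000, with 92.4%, 92.1%, 91.9%, 91.7% and 90.98%. All 10 lay in runs of 5 or more adjacent dense windows, as did 1325 of all 2479 dense windows (53.4%).

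The chromosome 25 window was the most uniform of these and also the one with the widest union region. Its cover was 89.4% in cerebellum, 90.7% in liver, the median tissue, and 92.5% in lung, and 92.3% of its union bases were covered by every list. The chromosome 12 window had the highest relative fold of all dense windows. Averaged over tissues it was 3.69, with 2.02 in the lowest tissue and 5.71 in the highest. At the other end, chr8:60500001-60600000 had a mean relative fold of 0.814, a union cover of 35.9% and a cover of 2.85% in cerebellum against 17.6% to 26.2% in the other tissues. The windows of highest and lowest fold were picked after their values were seen.

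Dense windows came in runs. Of the 2479 windows, 2046 (82.5%) had a dense neighbour. Of all 22054 autosomal windows 15.8% had one, and of the 19575 other windows 7.36%. They formed 843 runs in all: 433 single windows and 410 runs of 2 or more. Runs of 10 or more windows numbered 43 and held 753 windows, or 30.4%. Cover rose with the length of the run, from a median of 35.8% in single windows over 41.1% in runs of 2 to 4, 48.7% in runs of 5 to 9 and 57.3% in runs of 10 to 19 to 66.1% in longer ones. The share of union bases covered by every list was 35.3% in single windows and 56.9% in runs of 20 or more, and the median of the mean relative fold was 1.12 and 1.55.

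The longest run spanned 45 windows on chromosome 28, from base 36600001 to 41100000, and ended 0.0821 Mb before the last peak of that chromosome. Its mean cover was 64.0% ± 16.9 (SD over windows), with 33.4% and 94.5% in the least and the most covered window. By tissue the mean cover was 49.2% in pancreas, 52.7% in mammary gland and 57.7% in cerebrum, the lowest, a middle and the highest value. The second run, 43 windows on chromosome 31 from base 35600001 to 39900000, reached the last peak of the chromosome and held 89.6% of its 48 dense windows. Its mean cover was 66.5% ± 16.1 (SD over windows), and by tissue it was 53.2% in cerebellum and 60.3% in cerebrum. The third, 37 windows on chromosome 10 from base 16600001 to 20300000, lay 49.0 Mb before the last peak. None of its windows had a cover below 44.95%. Its mean cover was 51.4% in cerebellum and 52.7% to 59.995% in the other tissues.

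**Figure D3:**
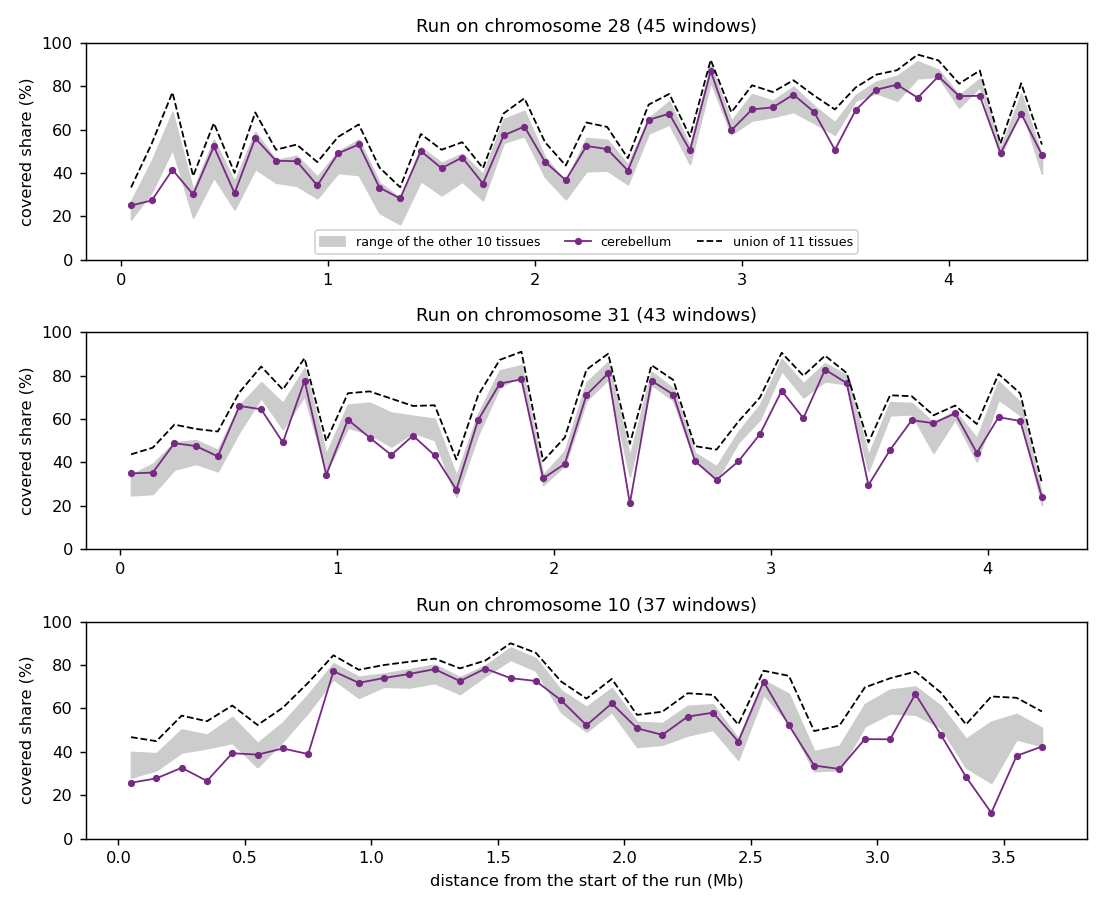
Covered share (percent) of each 100-kb window along the 3 longest runs, by distance in Mb from the start of the run; grey, range of 10 tissues, purple, cerebellum, dashed, union of all 11. Cover varies from window to window in each run, with tissues moving in opposite directions at some steps, and cerebellum lies below the grey band in 7 windows of the chromosome 28 run, 20 of the chromosome 31 run and 17 of the chromosome 10 run.

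The chromosomes differed widely in their share of dense windows. It was 20.0% on chromosome 18 (112 of 559 windows), 19.8% on chromosome 5, 19.1% on chromosome 9, 18.7% on chromosome 2, 18.2% on chromosome 10 and 17.96% on chromosome 28. The median over the 38 autosomes was 10.4%. Chromosomes 23 and 12 had 4.21% and 4.28%. Chromosome 32 had none: 0 of 389 windows, all of which were counted. The Wilson interval drawn for all chromosomes reaches 0.978% there, and a limit of 3 windows would be 0.771%. Both limits treat windows as independent draws, which adjacent windows are not. The most covered window of chromosome 32, chr32:28500001-28600000, reached 14.2%. The number of windows of a chromosome and its share of dense windows had a Spearman's rho of 0.123 over the 38 autosomes, given as a description. On chromosome X, which is outside the rule, 83 of 1239 windows (6.70%) had a union cover of 30% or more.

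Dense windows were concentrated near the ends of chromosomes, above all at the high-coordinate end. The high-coordinate end was taken as the last peak of any list and the low-coordinate end as the first base, so the ends are not set alike. The last Mb held 418 windows and the first 380. Dog autosomes are acrocentric, with the centromere near one end. The last 5 Mb held 785 dense windows, 31.7% of them, although only 8.79% of all windows lie there. The first 5 Mb held 346, or 13.96%, with 8.62% of all windows. Between both lay 1348 dense windows, 54.4%, in 82.6% of the windows. In the last Mb 57.7% of windows were dense, in the second Mb 49.2%, in the fifth 22.9% and at 10 to 20 Mb 4.29%. From the low-coordinate end the corresponding shares were 23.7%, 26.3%, 10.8% and 5.16%. Beyond 20 Mb it was 8.58% counted from the high-coordinate end and 12.5% from the low-coordinate end, but each of these classes includes the opposite end. Among the 7407 windows 20 Mb or more from both ends, 7.83% were dense.

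This was not the same on all chromosomes. In the last 5 Mb at least 1 dense window was found on 35 autosomes, and in the first 5 Mb on 24. On 28 autosomes the last 5 Mb held more than the first, and on 8 the first held more, among them chromosome 9 with 46 against 7 and chromosome 17 with 33 against 2. The members in the last 5 Mb had a median cover of 52.7% against 43.1% further in, and 55.6% against 43.4% of their union bases were covered by every list. In each of the 11 tissues the mean cover and the median relative fold were higher in the last 5 Mb. Cover was 42.6% and 32.4% in cerebellum, and relative fold 1.51 and 1.25 in colon.

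**Figure D4:**
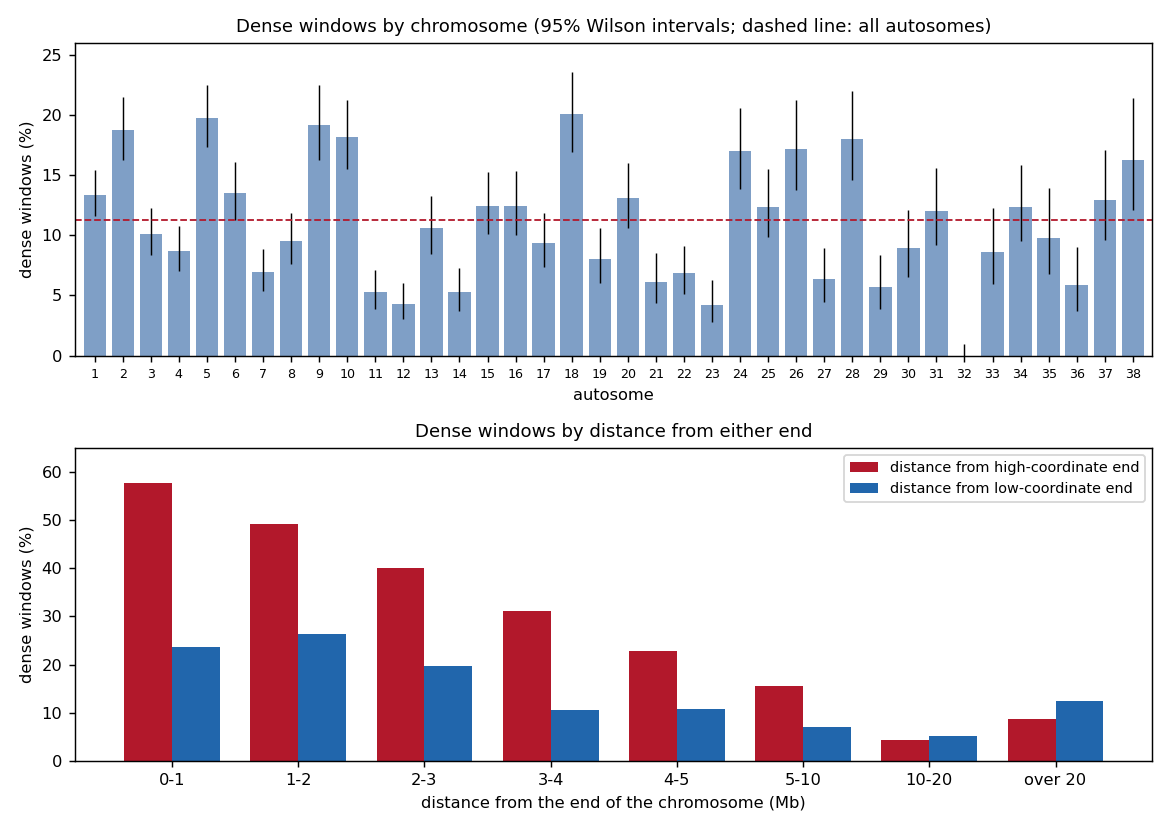
Top, percent of 100-kb windows that are dense on each autosome, with 95% Wilson intervals that cover counting error only and a dashed line at 11.2%, the value of all autosomes. Bottom, percent of dense windows by distance in Mb from the high-coordinate end (last peak) and from the low-coordinate end, all autosomes together; from the high-coordinate end the share falls from 57.7% in the last Mb to 4.29% at 10 to 20 Mb and is 8.58% beyond, a class that includes the opposite end.

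Cerebellum departed most from the other tissues inside dense windows. The range between the tissue of highest and of lowest cover was 12.3 points in the median window, with quartiles of 9.89 and 15.1 points. Pancreas was lowest in 745 windows, cerebellum in 680 and stomach in 587, while ovary was highest in 830, cerebrum in 600 and kidney in 386. Cerebellum was also highest in 316 windows. In 146 windows the lowest tissue lay 10 points or more below the next one, and in 145 of them it was cerebellum. The remaining one was chr21:48300001-48400000, where mammary gland covered 13.02% and the other tissues 27.1% to 41.0%.

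To set aside the level of each list, the cover of a tissue in a window was compared with the value that the mean of the tissue and the mean of the window give together. The SD of this deviation was 7.30 points in cerebellum, 3.58 in ovary and 1.74 to 3.01 in the other 9 tissues. Cerebellum lay 10 points or more below that value in 245 dense windows, ovary in 30, kidney in 4, pancreas in 2 and mammary gland and stomach in 1 each. It lay 10 points or more above it in 63 windows, liver in 10 and every other tissue in at most 5. In settings chosen after the data were seen, the number for cerebellum was 237 of 1903 dense windows with the upper 50% of every list by fold, and 257 of 2246 with lists of equal length.

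**Figure D5:**
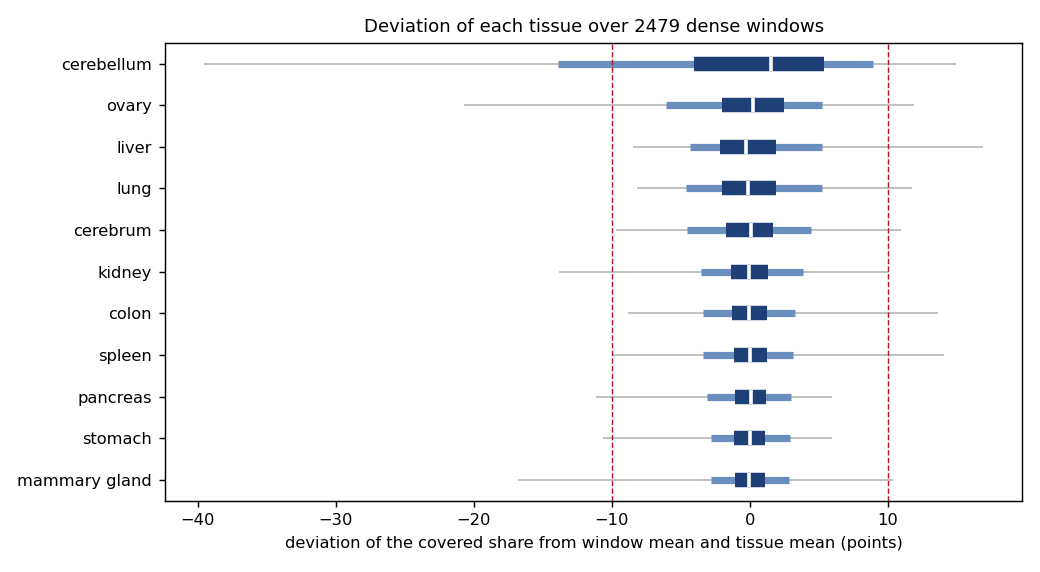
Deviation (percentage points) of the covered share of each tissue from the value given by the mean of the window and the mean of the tissue, over 2479 dense windows; thin lines span the lowest to the highest value, thicker lines the 5th to 95th percentile, the thickest the quartiles, white marks the median and dashed lines 10 points. Cerebellum reaches down to -39.6 points, ovary to -20.7, and the other tissues to no less than -16.8.

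The 245 windows lay on 32 chromosomes. Chromosome 9 held 30 of them, 25.6% of its dense windows. By count it was followed by chromosome 5 with 17 (9.66%) and chromosomes 6 and 20 with 16 each (15.2% and 21.1%). By share it was followed by chromosome 30 with 22.2% (8 of 36) and chromosome 7 with 21.4% (12 of 56). Over all autosomes the count was 245 of 2479 dense windows. By union cover, windows with cerebellum this low were 4.61% of the dense windows at 30% to 40% and 18.9% at 70% to 80%. At 80% or more they were 12.4%. The cut of 10 points is the same at every cover and so a smaller part of the cover where cover is high. How much of the rise follows from that was not tested. In these windows cerebellum had a mean cover of 26.1% against 39.1% (pancreas) to 47.9% (kidney) in the other tissues. In the other 2234 dense windows it covered 36.7%, within their range of 31.8% to 39.9%. Its median relative fold in the 245 windows was 0.963, against 1.27 to 1.43 in the others, and it had 34.5 peaks per window against 41.4 to 47.6. Since the windows were chosen by the cover of cerebellum, these values describe them and test nothing.

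In each of the 5 windows of largest range over tissues, cerebellum was the lowest tissue. In chr9:2100001-2200000 it covered 12.98%, while the other tissues covered 49.7% (spleen) to 67.6% (cerebrum). In the neighbouring windows chr9:2000001-2100000 and chr9:2200001-2300000 it covered 9.59% and 23.1%, against 42.3% to 58.8% and 57.1% to 77.4%. Nearby windows varied: in chr9:1800001-1900000 cerebellum, with 33.2%, lay inside the range of the others, 31.7% to 40.5%, and in chr9:2700001-2800000 it covered 84.9% against 78.3% to 86.6%. In chr20:54700001-54800000 cerebellum covered 39.1% and the others 72.8% to 85.6%. In chr4:28900001-29000000 it covered 8.005%, ovary 28.7%, the other tissues 37.4% (spleen) to 50.8% (colon), and liver 58.6%, the largest positive deviation of any tissue (16.9 points). The brain tissues stood on opposite sides in the first of these windows, where cerebrum was the highest tissue.

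Some dense windows varied little. The smallest ranges were 2.61 points in chr16:1-100000, where the tissues covered 26.7% (colon) to 29.3% (mammary gland), and 2.83 points in chr22:600001-700000, where they covered 29.2% (stomach) to 32.02% (ovary). Next came chr10:68600001-68700000 with 3.04 points, the chromosome 25 window described above with 3.11 points and chr18:100001-200000 with 3.30 points. All but the chromosome 25 window had a union cover below 35%. A different pattern was seen in chr27:1200001-1300000, picked after its values were seen. Kidney covered 21.1% and mammary gland 20.9% of it, ovary 15.1%, stomach 13.2% and cerebrum 12.97%, while lung, spleen, colon, liver and pancreas covered 6.55% to 8.78% and cerebellum 2.16%. Of its union bases, 0.844% were covered by every list.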

How the data were processed

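MBD-seq was done on 22 captured and 11 input libraries, and 11 peak lists, 1 per tissue, were used. The lists have no header. The build is CanFam3.1, per the submitters' processing notes; aligner, peak caller, filters and the way the libraries of a tissue were combined are not given in the sources used here. By place and values, the deposited columns are a score, the whole part of 10 times the −log10 p-value in all but 20 of 3300391 peaks, a fold (a ratio whose control is not stated), the −log10 p-value, a column read as the −log10 q-value, and the summit position. None was recomputed. Score was compared only with the p-value, and the q-value was not used. P-values and folds belong to single peaks and were only used within a list.

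Peaks were merged when they overlapped or touched. A window's cover is the union bases in it divided by 100000, also for the last window of a chromosome. A tissue is present in a region when a peak overlaps it by at least 1 base. Peaks and regions were assigned to windows by their midpoint, covered bases by position. The planned permutation tests of tissue groups are not reported, because the lists compared also defined the windows. Windows are not replicates, so values over windows carry no test. Depth is unknown, and Wilson intervals (95%) cover counting error only. The windows named by plan are the 10 of highest cover, the 3 longest runs, the 5 of largest and of smallest range over tissues and the 3 nearest the threshold on each side. All other windows named were picked after their values were seen, also where the sentence that names them does not say so. Members and measures were chosen with earlier results of these data known. The computations were tested on simulated lists. The gene table at hand belongs to another assembly, so genes and sequences of the windows were not analysed here. Python 3.11.15 with numpy 2.4.6, pandas 2.3.3, scipy 1.17.1 and matplotlib 3.10.9 was used.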

Additional observations from a re-analysis of the deposited data

How the results depend on the processing

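In every setting in which they were computed, sharing by all tissues of the setting was higher in dense windows than elsewhere, and the mean log2 ratio of relative fold was above 0. The windows were always chosen from the same peaks, so both directions are a description and no test. The values that moved follow; thresholds of 25% and 35% and other window sizes redefine the members by construction. With a threshold of 25%, dense windows held 51.01% of union bases, made up 14.17% of windows, differed in the 11-tissue share by 39.29 points and lay to 28.69% in the last 5 Mb; with 35% the values were 38.27%, 8.801%, 40.14 points and 34.78%. Windows of 50 kb gave 5088 dense windows with 47.38% of union bases, 41.8 points and 29.58% in the last 5 Mb, and windows of 200 kb gave 1155 with 40.75%, 37.93 points and 34.2%, or 10.46% of windows. Windows shifted by 50 kb gave 44.39% of union bases, 80.55% with a dense neighbour and 39.82 points. Keeping the upper 50% of every list by fold gave 44.596% of union bases, 8.629% of windows, 80.71% with a dense neighbour, 41.47 points and 35.47% in the last 5 Mb. Bases covered in at least 2 tissues gave 42.53%, 9.037%, 36.34 points and 34.52%. Lists of equal length gave 44.29%, 10.18% and 39.12 points, and peaks of at least 220 bases 44.589% and 41.1 points. Counting a tissue only where it covers 50% of a region gave 34.02 points. Chosen after seeing the data were sharing by base, which gave 27.24 points, leaving out chromosome 28, which gave 82.3% with a dense neighbour, leaving out chromosomes 28 and 31, which gave 29.44% in the last 5 Mb, both classes of lists by shortest peak, and the settings for windows in which cerebellum was 10 points or more low (237 to 257 windows).

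Leaving out each tissue in turn gave 2313 to 2476 dense windows, 44.08% to 44.6015% of union bases, 10.49% to 11.23% of windows, 82.5% to 82.9% with a dense neighbour, 38.01 to 39.59 points, log2 ratios of 0.47 to 0.50 and 31.7% to 32.4% in the last 5 Mb. Each time the windows were chosen again from the remaining lists, and sharing was counted over those lists. The difference by sex label ran from -1.15 (without colon) to 1.89 points (without ovary), with positive values also without liver (0.109), lung (0.183), pancreas (0.481) and spleen (0.116), and that by input animal ran from -2.79 (without pancreas) to 0.484 (without ovary). The first turned to 0.216 points with the upper 50% by fold and to 1.905 points within lists that hold peaks shorter than 200 bases, and it was -2.61 without both colon and stomach and -2.02 within the other lists by shortest peak. The second turned to 1.229 points with mean cover as the measure. The values with mean cover, without both colon and stomach and within lists by shortest peak kept the windows chosen from all lists. The cause of the turns was not tested. Scaling the last window of a chromosome to its own length was not run, since no genome of the same build was used here. No paired analysis was possible because each tissue has 1 peak list for both of its MBD libraries. Read depth, which limits how many peaks a list can hold, is unknown.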
